A study of Mus musculus with 12 samples.

Results

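Langerhans cells and dendritic cells are the antigen-presenting sentinels of the skin, and 10 genes that mark them were followed through the bulk RNA-seq of mouse back skin. The genes were *Cd207*, *Epcam*, *Itgax*, *Xcr1*, *Clec9a*, *Flt3*, *Zbtb46*, *Cd209a*, *Siglech* and *Ccr7*, taken by name as markers of these cells from the 56923 genes in the table of raw counts. All 10 were found there by Ensembl identifier, and all 10 had enough reads to be among the 18529 genes tested. In both genotypes *Cd207*, *Xcr1* and *Cd209a* fell after imiquimod (IMQ), to between 5.59% and 18.2% of the control level. *Flt3* and *Siglech* fell in WT mice, while in IMQ-treated mice labelled *Lcn2*-/- both stood above the WT IMQ level.

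Langerhans cells sit in the epidermis, where they carry the lectin langerin (*Cd207*) and the adhesion protein EpCAM (*Epcam*). Conventional dendritic cells of type 1 (cDC1) carry the chemokine receptor *Xcr1* and the dead-cell receptor *Clec9a* and present antigen to CD8 T cells, whereas cells of type 2 (cDC2), which in mouse dermis often carry the lectin *Cd209a*, mainly prime CD4 T cells. Plasmacytoid dendritic cells carry *Siglech* and are known as a source of type I interferon. *Itgax* (CD11c), the growth factor receptor *Flt3* and the transcription factor *Zbtb46* are shared by several of these subsets, and *Ccr7* is the chemokine receptor that guides activated dendritic cells to the draining lymph node. IMQ is an agonist of Toll-like receptor 7, and its cream gives mouse skin a psoriasis-like inflammation.

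The 12 female mice were 8 to 10 weeks old and fell into 4 groups of 3. WT control mice received vehicle on the shaved back, WT IMQ mice received 5% IMQ cream daily for 6 days, and 2 further groups labelled *Lcn2*-/- received the same vehicle or the same cream. *Lcn2*-/- mice, on a C57BL/6 background, lack lipocalin 2, an iron-siderophore-binding protein of neutrophils and epithelium, in all tissues, and the WT mice were their littermates. The sample labels also call the genotype a knockdown and the control treatment none, whereas the study describes a knockout line and a vehicle. The RNA came from whole skin, so fewer cells of a type and less RNA per cell cannot be told apart in any result below.

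Library totals lay between 16448226 and 28592110 reads counted on genes. A count of 3 corresponded to between 0.105 and 0.182 CPM (counts scaled to a common library size), and these floors cover counting error only. *Lcn2* was measured at 6.28, 8.64 and 4.57 CPM in the WT control mice and at 61.2, 183.0 and 76.1 CPM in the WT IMQ mice. In the libraries labelled *Lcn2*-/- it was measured at 10.5, 9.22 and 15.9 CPM in the controls and at 34.3, 29.9 and 49.8 CPM after IMQ. Reads on *Lcn2* were therefore present in every library labelled *Lcn2*-/-, which goes against that label as far as total gene counts can show, since the exons deleted in this line are not given in the sources used here. Every direction between genotypes below rests on the labels alone. The skin label fitted its markers: 6 keratinocyte genes (*Krt5*, *Krt14*, *Krt1*, *Krt10*, *Cdh1* and *Dsp*) summed to at least 4677.2 CPM in every mouse.

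The sequences just upstream of *Cd207*, *Xcr1* and *Cd209a* are shown because these were the members called lower in both genotypes. They are the 250 bases before the annotated start in RefSeq, GRCm38.p6, read 5′ to 3′ on the gene's own strand, which is the minus strand in all of these genes. Capitals mark matches to any of 6 motifs searched on both strands: GAGGAAG (a PU.1-type ETS site), TGANTCA (AP-1), TGTGGT (RUNX), CAGGTG (an E2-type E-box), the interferon-stimulated response element and the ETS-IRF composite element. The marked matches did not overlap each other.
*Cd207* (chr6:83677858-83678107): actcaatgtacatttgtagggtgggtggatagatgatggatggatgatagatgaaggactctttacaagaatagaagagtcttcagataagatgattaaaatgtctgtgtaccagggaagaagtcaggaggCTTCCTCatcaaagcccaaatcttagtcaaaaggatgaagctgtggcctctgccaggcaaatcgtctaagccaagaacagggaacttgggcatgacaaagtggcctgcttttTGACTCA
*Xcr1* (chr9:123862030-123862279): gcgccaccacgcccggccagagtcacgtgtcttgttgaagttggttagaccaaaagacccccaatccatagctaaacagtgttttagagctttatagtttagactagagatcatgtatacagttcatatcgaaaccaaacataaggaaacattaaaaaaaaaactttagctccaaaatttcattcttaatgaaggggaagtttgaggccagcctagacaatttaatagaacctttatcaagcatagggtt
*Cd209a* (chr8:3748985-3749234): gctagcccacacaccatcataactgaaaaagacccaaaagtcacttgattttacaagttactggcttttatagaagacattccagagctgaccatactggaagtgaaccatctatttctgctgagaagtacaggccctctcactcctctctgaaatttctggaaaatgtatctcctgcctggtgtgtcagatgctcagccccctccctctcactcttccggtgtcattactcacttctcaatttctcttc
The *Cd207* window held 1 PU.1-type match, on the opposite strand with its first base 119 bases before the start, and 1 AP-1 match in the last 7 bases before the start. The *Xcr1* and *Cd209a* windows held none of these letters. A PU.1-type match stood in 10.6% of the 32851 mouse promoter windows of the same length and an AP-1 match in 6.75%. The RUNX letters stood in 14% of all windows, the E-box in 17.2%, the interferon-stimulated element in 2.98% and the ETS-IRF composite in 2.3%. Over the 9 members with a promoter entry, AP-1 matches were found in the *Cd207*, *Itgax* and *Zbtb46* windows, E-box matches in those of *Epcam*, *Zbtb46* and *Siglech*, and a RUNX match in that of *Siglech*. The *Zbtb46* window (chr2:181424389-181424638) lies inside the GENCODE span of that gene, 181387762 to 181459426, and not before its 5′ end. The windows of *Clec9a* and *Flt3* also held no match, and the interferon-stimulated and ETS-IRF elements were in none of the 9 windows. The 3 genes that fell together thus shared no motif of this set in these 250 bases.

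On a scale per length of exon, the members covered a wide range in untreated skin. In WT control mice *Epcam* stood highest, at 47.2 ± 12.9 RPKM (CPM per kilobase of exon, mean ± SD, n = 3), followed by *Cd209a* at 32.4 ± 9.37 and *Cd207* at 20.1 ± 2.76. *Epcam* and *Cd209a* overlapped between mice, whereas *Cd207* lay below *Cd209a* in every WT control mouse. The other 7 members were far lower, from *Itgax* at 2.84 ± 0.855 RPKM to *Clec9a* at 0.734 ± 0.208 RPKM. *Itgax* lay below every *Cd207* value, and each gene from *Itgax* down to *Clec9a* overlapped its neighbour in the order. After IMQ in WT mice the same scale gave *Epcam* 39.0 ± 8.79, *Cd207* 3.68 ± 1.26, *Cd209a* 1.99 ± 1.34 and *Itgax* 1.69 ± 0.55 RPKM, with *Xcr1* last at 0.0523 ± 0.0426 RPKM. Among mice labelled *Lcn2*-/- *Epcam* again led both groups, at 61.3 ± 5.75 RPKM in controls and 24.2 ± 4.45 RPKM after IMQ, and *Xcr1* was last after IMQ at 0.104 ± 0.0966 RPKM.

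**Figure D1:**
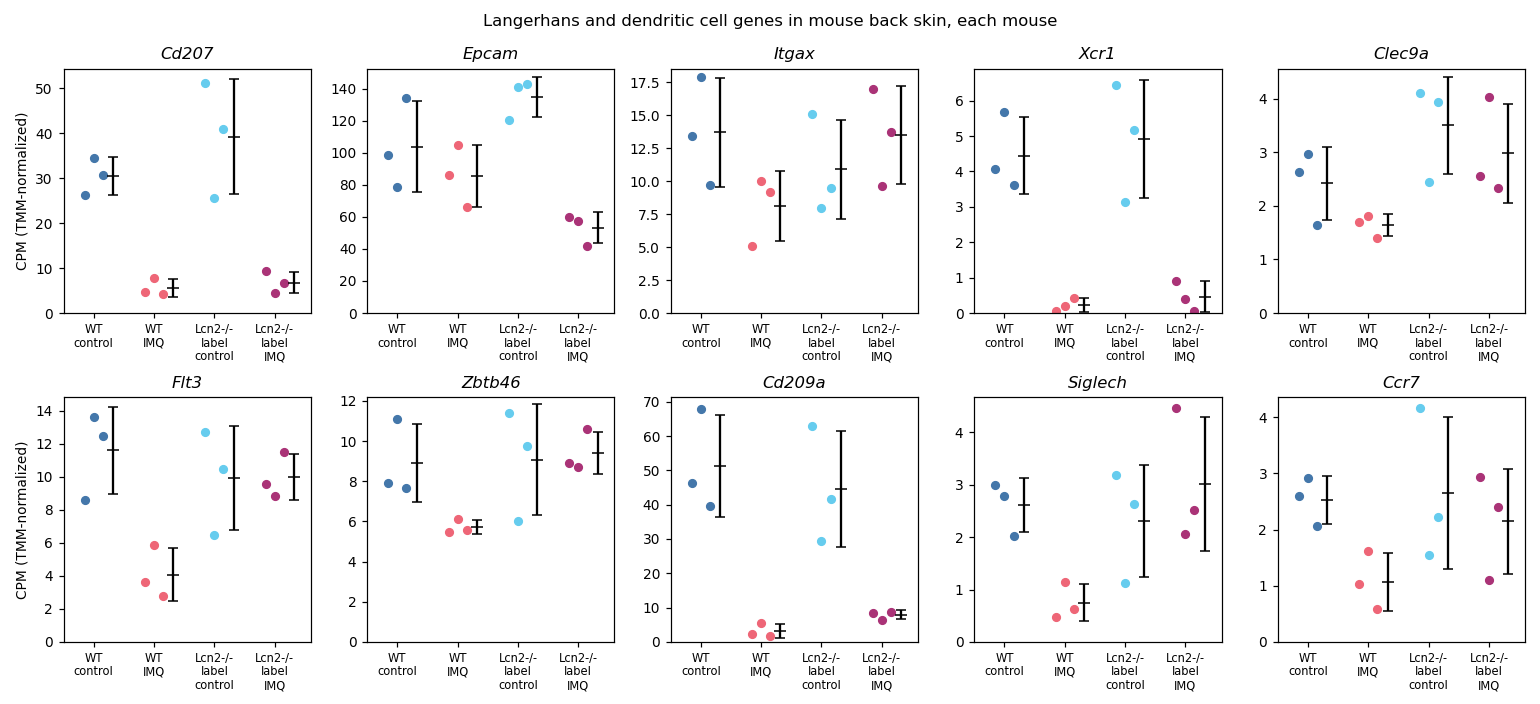
Normalized read counts (CPM, vertical axes starting at 0 and scaled for each gene) of the 10 genes in each of the 12 mice, by group; each point is 1 mouse, and the bar is the mean ± SD of 3 mice. The IMQ points of *Cd207*, *Xcr1* and *Cd209a* lie below all control points in both genotypes, whereas those of *Flt3*, *Zbtb46* and *Siglech* do so in WT mice and not in mice labelled *Lcn2*-/-.

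In WT mice, IMQ lowered *Cd207*, *Xcr1*, *Flt3*, *Cd209a* and *Siglech*, and none of the 10 genes rose, where 14.2% of all tested genes did. These 5 of 10 members had an adjusted p under 0.05 (quasi-likelihood F test of edgeR, adjusted by Benjamini and Hochberg across the 18529 genes), against 14.3% of all tested genes called lower. All 10 fold changes were negative, with a median log2 fold change of -1.38 against -0.02 over all genes tested. In 7 of the 10 every IMQ mouse lay below every control mouse, an order found in 20.6% of all tested genes. Other leukocyte lists in the same WT comparison had medians of -2.02 for 7 T cell, -1.68 for 3 NK cell and -0.41 for 4 monocyte genes. Medians were 0.13 for 8 macrophage, 0.24 for 7 leukocyte-wide and 3.44 for 3 neutrophil genes, and 1 tested B cell gene gave 1.06. A median fall was therefore not particular to the 10 members. Among mice labelled *Lcn2*-/- the members called lower were *Cd207*, *Epcam*, *Xcr1* and *Cd209a*, 4 of 10 against 11.2% of all tested genes. None was called higher there, where 14.1% of all genes were. The median log2 fold change of the members was -0.27 in that comparison and -0.05 over all genes, and in 4 members the groups did not overlap, all lower, against 22.8% of all genes.

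Langerin (*Cd207*) is the defining lectin of Langerhans cells and is also carried by cDC1 of the dermis, so its reads can come from both. *Cd207*, at chromosome 6, 83671215 to 83677857 on the minus strand (GRCm38, ENSMUSG00000034783), was measured at 26.2, 34.6 and 30.8 CPM in WT control mice and at 4.73, 7.8 and 4.26 CPM in WT IMQ mice. The corresponding values in mice labelled *Lcn2*-/- were 51.1, 25.6 and 41.0 CPM in controls and 9.28, 4.44 and 6.66 CPM after IMQ. The highest IMQ mouse of either genotype, at 9.28 CPM, lay well below the lowest control mouse, at 25.6 CPM. The log2 fold change was -2.45 (SE 0.33, adjusted p = 0.000318, edgeR), or 5.48-fold lower, in WT mice and -2.53 (SE 0.33, adjusted p = 0.000424, edgeR), or 5.78-fold lower, in mice labelled *Lcn2*-/-. The 2 responses differed by -0.08 on the log2 scale (95% interval -1.06 to 0.91, adjusted p = 0.940 for the interaction, edgeR).

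EpCAM followed another pattern. *Epcam* (chromosome 17, 87635979 to 87651129, plus strand) is found on Langerhans cells and also in hair follicle epithelium. It stood at 98.3, 78.4 and 134.4 CPM in WT control mice and at 86.0, 104.7 and 66.1 CPM in WT IMQ mice, so that these groups overlapped. The values with the *Lcn2*-/- label were 120.1, 141.1 and 142.7 CPM in controls and 59.9, 57.7 and 42.0 CPM after IMQ, and every IMQ mouse lay below every control mouse. The log2 differences were -1.34 (SE 0.22, adjusted p = 0.00161, edgeR) in that genotype and -0.28 (SE 0.22, adjusted p = 0.364, edgeR) in WT mice. The difference between the responses was -1.06 (SE 0.31, adjusted p = 0.0819 for the interaction, edgeR). Beside this, 9 hair follicle genes summed to between 786.6 and 2750.9 CPM in WT control mice and between 236.5 and 342.0 CPM in WT IMQ mice. The same sum went from between 551.8 and 7072.5 CPM to between 128.4 and 283.9 CPM in mice labelled *Lcn2*-/-. Of the 9 genes, 4 were called lower in WT mice, against 14.3% of all tested genes, and 8 in mice labelled *Lcn2*-/-, against 11.2%. None of the 9 was at 0 in all mice of a group, and their part in the *Epcam* values was not tested.

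The 2 cDC1 receptors parted. *Xcr1*, the receptor for the chemokine XCL1 (chromosome 9, 123852315 to 123862029, minus strand), was counted 88, 132 and 68 times in WT control mice and 1, 3 and 9 times in WT IMQ mice. In the other genotype it was counted 196, 59 and 116 times in controls and 15, 7 and 1 times after IMQ. These are levels of 3.62 to 5.67 CPM and 3.14 to 6.44 CPM in the control groups, and of at most 0.436 and 0.916 CPM after IMQ, where several mice were near the floor. The log2 fold change was -4.16 (SE 0.70, adjusted p = 0.00121, edgeR) in WT mice and -3.41 (SE 0.65, adjusted p = 0.00345, edgeR) in mice labelled *Lcn2*-/-. From the summed counts alone, 13 against 288, *Xcr1* in WT IMQ mice stood at 5.53% of the control level (exact 95% interval 2.91% to 9.6%, counting error only). The sums of 23 against 371 in mice labelled *Lcn2*-/- gave 8.86% (exact 95% interval 5.54% to 13.5%).

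*Clec9a*, which senses actin exposed on dead cells (chromosome 6, 129408862 to 129424763, plus strand), passed the test in neither genotype. It was counted 57, 69 and 31 times in WT control mice and 28, 27 and 29 times in WT IMQ mice, a range of 1.65 to 2.97 CPM against 1.4 to 1.81 CPM. The counts with the *Lcn2*-/- label were 125, 46 and 88 in controls and 42, 69 and 39 after IMQ. On the log2 scale the difference was -0.57 (95% interval -1.30 to 0.17, adjusted p = 0.230, edgeR) in WT mice and -0.23 (95% interval -0.94 to 0.47, adjusted p = 0.630, edgeR) in mice labelled *Lcn2*-/-. The annotation places *Clec1b* and *Gm43914* on the same strand within its span, so reads there may be shared. The number of *Xcr1* reads per *Clec9a* read, a ratio chosen after the values were seen, was 1.54, 1.91 and 2.19 in WT control mice and 0.0357, 0.111 and 0.31 in WT IMQ mice. The same ratio was 1.57, 1.28 and 1.32 in controls labelled *Lcn2*-/- and 0.357, 0.101 and 0.0256 after IMQ. The lowest of the 6 control mice, at 1.28, stood above the highest of the 6 IMQ mice, at 0.357.

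*Cd209a*, a relative of human DC-SIGN (chromosome 8, 3743397 to 3748984, minus strand), was among the most abundant members in untreated skin and lost most of its reads after IMQ. It stood at 46.2, 67.9 and 39.6 CPM in WT control mice and at 2.24, 5.58 and 1.65 CPM in WT IMQ mice. The values in mice labelled *Lcn2*-/- were 62.9, 29.3 and 41.7 CPM in controls and 8.55, 6.37 and 8.7 CPM after IMQ. The groups were far apart in both genotypes, and the IMQ mice labelled *Lcn2*-/- all lay above the WT IMQ mice. The log2 fold change was -4.05 (SE 0.45, adjusted p = 8.1e-05, edgeR), or 16.5-fold lower, in WT mice and -2.50 (SE 0.41, adjusted p = 0.00164, edgeR), or 5.67-fold lower, in mice labelled *Lcn2*-/-. The responses differed by 1.54 (SE 0.57, adjusted p = 0.136 for the interaction, edgeR).

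*Siglech*, the lectin of plasmacytoid dendritic cells (chromosome 7, 55768178 to 55778925, plus strand), was sparse. It was counted 65, 65 and 38 times in WT control mice and 8, 17 and 13 times in WT IMQ mice, or 2.02 to 3.0 CPM against 0.485 to 1.14 CPM. Mice labelled *Lcn2*-/- gave 97, 21 and 59 reads in controls and 73, 35 and 42 reads after IMQ, or 1.12 to 3.19 CPM against 2.05 to 4.46 CPM. The WT groups did not overlap, whereas the groups labelled *Lcn2*-/- did. On the log2 scale *Siglech* gave -1.80 (SE 0.48, adjusted p = 0.0157, edgeR) in WT mice and 0.37 (SE 0.44, adjusted p = 0.575, edgeR) in mice labelled *Lcn2*-/-. The difference between them was 2.17 (SE 0.65, adjusted p = 0.0884 for the interaction, edgeR). The WT call was lost without WT IMQ mouse 1 (-1.57, adjusted p = 0.0704, edgeR) or mouse 3 (-1.68, adjusted p = 0.0626, edgeR).

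Of the genes shared among subsets, *Flt3*, the receptor for the growth factor that sustains dendritic cells, moved furthest in WT mice. *Flt3* (chromosome 5, 147330741 to 147400489, minus strand) stood at 8.6, 13.6 and 12.5 CPM in WT control mice and at 3.64, 5.85 and 2.76 CPM in WT IMQ mice. Levels with the *Lcn2*-/- label were 12.7, 6.5 and 10.5 CPM in controls and 9.59, 8.83 and 11.5 CPM after IMQ, a range inside that of their controls. On the log2 scale *Flt3* gave -1.51 (SE 0.32, adjusted p = 0.00456, edgeR) in WT mice and 0.01 (95% interval -0.66 to 0.67, adjusted p = 0.991, edgeR) in mice labelled *Lcn2*-/-. The difference between the responses was 1.52 (SE 0.44, adjusted p = 0.0820 for the interaction, edgeR). The antisense gene *Gm26597* lies across *Flt3*, and whether the counting used strand is not given in the sources used here.

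*Zbtb46*, a transcription factor of conventional dendritic cells that is also known in endothelium (chromosome 2, 181387762 to 181459426, minus strand), ran in a narrower band. It stood at 7.9, 11.1 and 7.66 CPM in WT control mice and at 5.45, 6.12 and 5.57 CPM in WT IMQ mice. Values in mice labelled *Lcn2*-/- were 11.4, 6.02 and 9.78 CPM in controls and 8.91, 8.71 and 10.6 CPM after IMQ. The WT groups did not overlap and gave a log2 difference of -0.64 (SE 0.24, adjusted p = 0.0685, edgeR), and the groups labelled *Lcn2*-/- overlapped, at 0.05 (SE 0.24, adjusted p = 0.904, edgeR). *Itgax*, the integrin CD11c, which macrophages carry as well (chromosome 7, 128129547 to 128150657, plus strand), overlapped between IMQ and control in both genotypes. Its levels were 13.4, 17.9 and 9.68 CPM in WT control mice and 5.09, 10 and 9.2 CPM in WT IMQ mice. Mice labelled *Lcn2*-/- stood at 15.1, 7.94 and 9.51 CPM as controls and at 17.0, 9.65 and 13.7 CPM after IMQ. On the log2 scale *Itgax* differed by -0.75 (SE 0.34, adjusted p = 0.115, edgeR) in WT mice and 0.31 (SE 0.33, adjusted p = 0.530, edgeR) in mice labelled *Lcn2*-/-.

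*Ccr7* (chromosome 11, 99144196 to 99155077, minus strand) was counted 56, 68 and 39 times in WT control mice and 17, 24 and 12 times in WT IMQ mice, or 2.07 to 2.92 CPM against 0.581 to 1.61 CPM. It was counted 127, 29 and 50 times in controls labelled *Lcn2*-/- and 48, 19 and 40 times in their IMQ counterparts, or 1.55 to 4.17 CPM against 1.11 to 2.93 CPM. The WT groups did not overlap, but the difference did not pass the adjusted threshold, at -1.25 on the log2 scale (SE 0.49, adjusted p = 0.0779, edgeR). It passed without WT IMQ mouse 2 (-1.66, adjusted p = 0.0423, edgeR). The groups labelled *Lcn2*-/- overlapped, at -0.32 (SE 0.47, adjusted p = 0.655, edgeR).

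**Figure D2:**
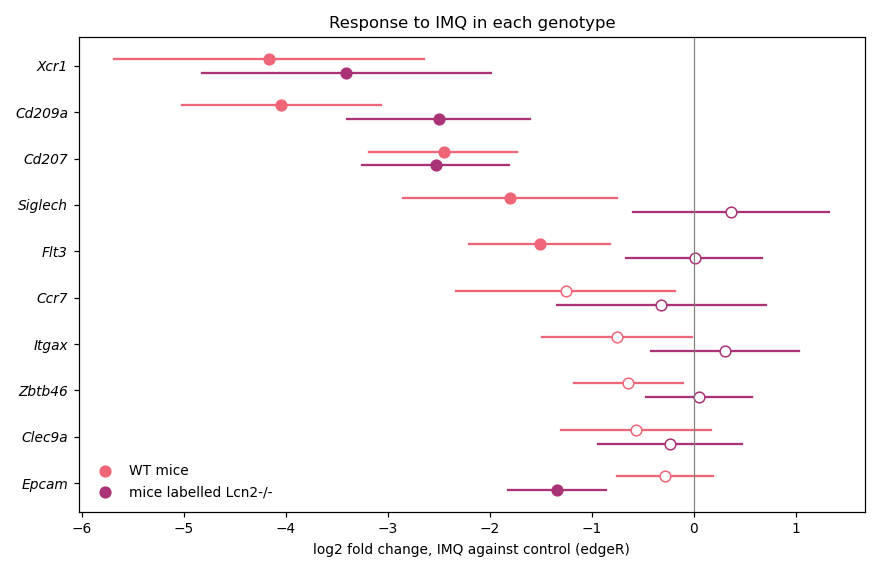
Log2 fold change of each gene after IMQ, with its 95% interval from the edgeR fit, in WT mice and in mice labelled *Lcn2*-/- (3 against 3 each); filled points mark an adjusted p under 0.05. *Xcr1*, *Cd209a* and *Cd207* lie at -2.45 or lower in both genotypes, and *Siglech* and *Flt3* lie at -1.80 and -1.51 in WT mice and at 0.37 and 0.01 in mice labelled *Lcn2*-/-, a difference between the responses that was called for neither.

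A direct comparison of the IMQ-treated groups addressed whether the genotype label went with different levels in inflamed skin. *Flt3*, at 2.46-fold (log2 fold change 1.30, SE 0.32, adjusted p = 0.0445, edgeR), and *Siglech*, at 4.01-fold (2.00, SE 0.48, adjusted p = 0.0429, edgeR), were higher in mice labelled *Lcn2*-/-, 2 of 10 members against 2.19% of all tested genes called higher. None was called lower, where 2.6% of all genes were. Both calls sat close to the threshold. Leaving out WT IMQ mouse 1 or 3, WT control mouse 1, control mouse 3 labelled *Lcn2*-/- or any IMQ mouse labelled *Lcn2*-/- ended both, with adjusted p from 0.0571 to 0.196 and log2 fold changes of 1.07 to 1.38 for *Flt3* and 1.61 to 2.22 for *Siglech*. In 5 members every IMQ mouse labelled *Lcn2*-/- lay above every WT IMQ mouse (*Clec9a*, *Flt3*, *Zbtb46*, *Cd209a* and *Siglech*), an order found in 16% of all genes, and *Epcam* showed the opposite order, found in 17.3%. *Cd209a* gave 1.34 (SE 0.43, adjusted p = 0.0825, edgeR) and *Epcam* -0.69 (SE 0.22, adjusted p = 0.0809, edgeR). *Cd207* hardly separated the groups, at 0.29 (95% interval -0.43 to 1.00, adjusted p = 0.601, edgeR), while *Xcr1*, near the floor, gave 0.90 with a wide interval of -0.79 to 2.60 (adjusted p = 0.475, edgeR). The median over the 10 members was 0.88 on the log2 scale, against -0.02 over all genes. Other leukocyte lists stood higher too, with medians of 0.87 for 7 T cell, 1.05 for 3 NK cell and 0.83 for 4 monocyte genes. Medians were 0.75 for 3 neutrophil, 0.67 for 8 macrophage and 0.54 for 7 leukocyte-wide genes, and 1 tested B cell gene gave 1.14. No gene of these lists was lower by sign, and none was called. A higher median was therefore not particular to the 10 members.

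In untreated skin the CPM levels of these genes did not tell the genotypes apart. No member was called between the control groups by edgeR, where 0.0108% of all genes were called in either direction. None had an unadjusted p under 0.05, against 6.6% of all genes, and DESeq2 also called none of them. The log2 fold changes of controls labelled *Lcn2*-/- against WT controls ran from -0.33 for *Itgax* to 0.53 for *Clec9a*, and the groups overlapped in all 10 genes, whereas 4.19% of all genes stood higher and 5.18% lower without overlap. The tests of whether the 2 IMQ responses differed called none of the 10, where 2.15% of all genes were called in either direction. Without adjustment 5 members (*Epcam*, *Flt3*, *Siglech*, *Cd209a* and *Itgax*) had p under 0.05, against 24.1% of all genes. Without WT IMQ mouse 2 the difference passed the adjusted threshold for *Flt3* (1.87, adjusted p = 0.0231), *Cd209a* (2.23, adjusted p = 0.0216) and *Siglech* (2.58, adjusted p = 0.0385), and without WT control mouse 3 it did so for *Epcam* (-1.29, adjusted p = 0.0307), all by edgeR.

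In 3 of the 4 groups the members were highest mostly in the mouse with the most leukocyte reads. Within the WT controls mouse 2 had the highest value of 8 of the 10 members, within the WT IMQ mice mouse 2 had the highest of 9, and within the controls labelled *Lcn2*-/- mouse 1 had the highest of 9 and mouse 2 the lowest of 9. The summed level of 7 leukocyte genes (*Ptprc*, *Coro1a*, *Laptm5*, *Cd53*, *Cd52*, *Arhgdib* and *Lcp1*) was also highest in these mice, at 1262.9, 1455.3 and 805.8 CPM, and lowest among those controls in mouse 2, at 408.1 CPM. The IMQ mice labelled *Lcn2*-/- did not follow this order, since mouse 1 had the highest value of 6 members with the lowest leukocyte sum of its group, 1445.2 CPM. Mouse 3 of that group, with the highest sum at 1915.3 CPM, had the highest value of 3 members and the lowest of 3. Across the 12 mice the log2 CPM of *Cd207* and *Cd209a* had the closest pairing of any 2 members (Pearson r 0.954), and *Epcam* and *Itgax* the most opposed (r -0.28), while *Cd207* gave 0.927 with *Xcr1* and 0.709 with *Epcam*, which describes mice that share treatment groups.

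Because a CPM level moves with the leukocyte content of the skin, each member was also set against the summed counts of the 7 leukocyte genes. That sum was 884.8 ± 369.9 CPM in WT control mice, 1076.0 ± 329.1 CPM in WT IMQ mice, 606.3 ± 198.8 CPM in controls labelled *Lcn2*-/- and 1617.6 ± 258.9 CPM in their IMQ counterparts (SD, n = 3 each). None of the 7 was called in WT mice, where 14.2% of all tested genes were called higher and 14.3% lower. All 7 were called higher after IMQ in mice labelled *Lcn2*-/-, as were 7 of 8 macrophage genes, against 14.1% of all tested genes. Per leukocyte read, 9 of 10 members were lower in every WT IMQ mouse than in every WT control mouse, *Epcam* being the exception, against 19.4% of all tested genes. The differences ran from -4.69 for *Xcr1* and -4.50 for *Cd209a* to -0.85 for *Clec9a* and -0.60 for *Epcam* on the log2 scale. With the *Lcn2*-/- label the count was also 9 of 10, with *Siglech* the exception, but 81.4% of all genes were lower on this scale, with a median of -1.5, so the count says little about these genes. *Xcr1* at -5.28, *Cd207* at -3.99, *Cd209a* at -3.90, *Epcam* at -2.81, *Ccr7* at -1.74 and *Clec9a* at -1.69 lay below that median, whereas *Flt3* at -1.40, *Zbtb46* at -1.36, *Itgax* at -1.13 and *Siglech* at -1.03 did not. Between the IMQ groups the same scale left *Flt3* (0.73), *Cd209a* (0.88) and *Siglech* (1.35) higher without overlap in mice labelled *Lcn2*-/-, against 1.64% of all genes, and *Epcam* (-1.30) lower, against 34.5%. With *Ptprc* as the only leukocyte gene *Cd209a* overlapped between the IMQ groups (0.82), and *Itgax* overlapped between IMQ and control mice labelled *Lcn2*-/- (-0.93). Between the control groups 3 members, *Cd207* (0.82), *Xcr1* (0.62) and *Clec9a* (1.04), were higher per leukocyte read without overlap in mice labelled *Lcn2*-/-, against 6.42% of all genes, and with *Ptprc* alone only *Clec9a* was (0.82). An exact two-sided permutation test cannot give a p below 0.1 with 3 mice against 3, and 0.1 was the value for each separation without overlap.

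**Figure D3:**
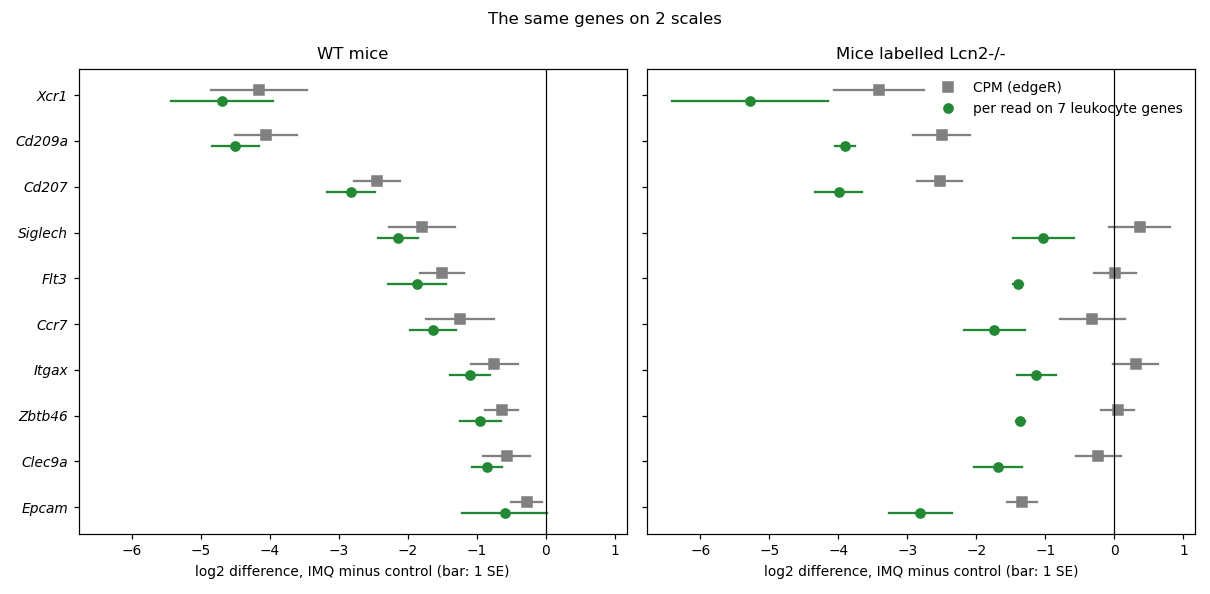
Log2 difference between IMQ and control mice (bars, 1 SE; 3 against 3 mice) for each gene in CPM, as squares, and per read on 7 leukocyte genes, as circles. In WT mice the scales give similar values, while in mice labelled *Lcn2*-/- the circles lie between -5.28 and -1.03 and the squares of *Siglech*, *Itgax*, *Zbtb46* and *Flt3* lie between 0.01 and 0.37.

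Further genes of each subset were read from lists in which the members were left out. Among 7 other cDC1 genes none was called in WT mice (median log2 fold change -0.38), where 14.2% of all tested genes were called higher and 14.3% lower. With the *Lcn2*-/- label 2 rose, the transcription factors *Batf3* (2.04, SE 0.42) and *Irf8* (1.07, SE 0.30), and 2 fell, the RNA sensor *Tlr3* (-0.89) and the adhesion gene *Cadm1* (-0.78). The shares of all tested genes there were 14.1% called higher and 11.2% lower. *Irf8* and *Batf3* are also used by macrophages and lymphocytes, and *Tlr3* and *Cadm1* by epithelium. *Itgae*, an integrin of cDC1 and of resident T cells, gave -1.13 (SE 0.42, adjusted p = 0.0615, edgeR) in WT mice and -0.97 (SE 0.41, adjusted p = 0.103, edgeR) in mice labelled *Lcn2*-/-.

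The steepest fall among the 7 other cDC2 genes was that of *Mgl2*, the lectin CD301b of dermal cDC2. *Mgl2* stood between 135.2 and 398.4 CPM in WT control mice and between 2.42 and 6.32 CPM after IMQ, or -5.90 on the log2 scale (SE 0.54, adjusted p = 2.12e-05, edgeR). Mice labelled *Lcn2*-/- ran from 96.2 to 230.3 CPM in controls and from 8.46 to 9.4 CPM after IMQ (-4.08, SE 0.49, adjusted p = 0.000274, edgeR). Its close relative *Clec10a*, a lectin shared with macrophages, was not called, at -0.88 (adjusted p = 0.0884, edgeR) and 0.80 (adjusted p = 0.127, edgeR). *Cd209d* fell in WT mice (-1.24), and *Klf4*, a factor of cDC2 that is abundant in keratinocytes, rose in both genotypes (1.35 and 0.84). In WT mice 1 of 7 thus rose and 2 fell, against 14.2% of all tested genes called higher and 14.3% lower. With the *Lcn2*-/- label 3 rose, with *Clec4a4* (4.69) and *Sirpa* (1.32) beside *Klf4*, and *Mgl2* alone fell, against 14.1% of all tested genes called higher and 11.2% lower. *Clec4a4* rested on a total of 4 reads in the controls and 76 after IMQ. Compared between the IMQ groups, *Klf4* was called lower in mice labelled *Lcn2*-/- (-0.54) and none of the 7 was called higher. Over all tested genes 2.6% were called lower and 2.19% higher in that comparison.

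Of 11 other plasmacytoid genes 9 could be tested. In WT mice 4 fell, among them the interferon-response genes *Irf7* (-2.04, SE 0.45) and *Bst2* (-1.53, SE 0.41) and the muscle-shared *Cox6a2* (-1.12), and 2 rose, among them *Ly6d* (2.17), which keratinocytes make in quantity. Over all tested genes 14.3% were called lower and 14.2% higher there. *Irf7* and *Bst2* are made by many cells that have met interferon. In mice labelled *Lcn2*-/- *Ly6d* (1.32), *Ccr9* (1.09) and *Tcf4* (0.42), the factor that specifies plasmacytoid cells but is also expressed in stroma, rose and *Runx2* (-0.57) fell. Over all tested genes 14.1% were called higher and 11.2% lower there. *Ccr9* (1.05, adjusted p = 0.0248, edgeR) and *Runx2* (-0.99, adjusted p = 0.00296, edgeR) were also called in WT mice. *Tcf4* was also higher in the IMQ group labelled *Lcn2*-/- than in the WT IMQ group (0.59, SE 0.11, adjusted p = 0.0237, edgeR). Beside this, 4 fibroblast genes summed to between 8913.6 and 9880.1 CPM in the IMQ mice labelled *Lcn2*-/-. In the WT IMQ mice they summed to between 4220.1 and 4539.6 CPM. Between these groups 2 of the 4, *Col1a1* and *Col1a2*, were called higher, against 2.19% of all tested genes. The part of the fibroblast genes in the *Tcf4* value was not tested.

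Of 13 tested genes of mature and migratory dendritic cells, 4 fell and 1 rose in WT mice, against 14.3% of all tested genes called lower and 14.2% higher. *Ccl22*, a chemokine of mature dendritic cells for CCR4-bearing T cells, went from between 17.8 and 20.7 CPM to between 1.31 and 9.14 CPM (-2.26, SE 0.58, adjusted p = 0.0130, edgeR). It also fell in mice labelled *Lcn2*-/- (-2.49, SE 0.59, adjusted p = 0.0106, edgeR). *Cd83*, an activation marker, fell in WT mice (-1.61, SE 0.37), as did *Socs2* (-1.20), while the actin-bundling *Fscn1* rose (0.67). In mice labelled *Lcn2*-/- 3 of 13 rose, with the costimulatory *Cd80* (1.5) and *Samsn1* (1.28), and 3 fell, with the checkpoint ligand *Cd274* (-1.41). The shares of all tested genes there were 14.1% called higher and 11.2% lower. The list therefore did not move as 1 block, and its median was -0.25 in WT mice and -0.24 in mice labelled *Lcn2*-/-.

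Genes shared across subsets gave different calls in the 2 genotypes, but the test of the difference between the responses called none of them. Of 7 such genes other than the members, *Id2* alone fell in WT mice (-1.18, SE 0.21), a count near the 14.3% of all tested genes called lower. In mice labelled *Lcn2*-/- 5 of the 7 rose, against 14.1% of all tested genes called higher, with *Spi1* (2.04), *Csf1r* (1.79), *Csf2ra* (1.19) and *Csf2rb* (1.13) the furthest. All of these are also genes of macrophages, whose 8 markers summed to between 811.9 and 1580.0 CPM in the controls labelled *Lcn2*-/- and between 3143.3 and 4412.1 CPM after IMQ, and their part in these rises was not tested. *Runx3*, a factor needed by Langerhans cells and by lymphocytes, stood higher in the IMQ group labelled *Lcn2*-/- than in the WT IMQ group (0.84, SE 0.15, adjusted p = 0.0222, edgeR).

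**Figure D4:**
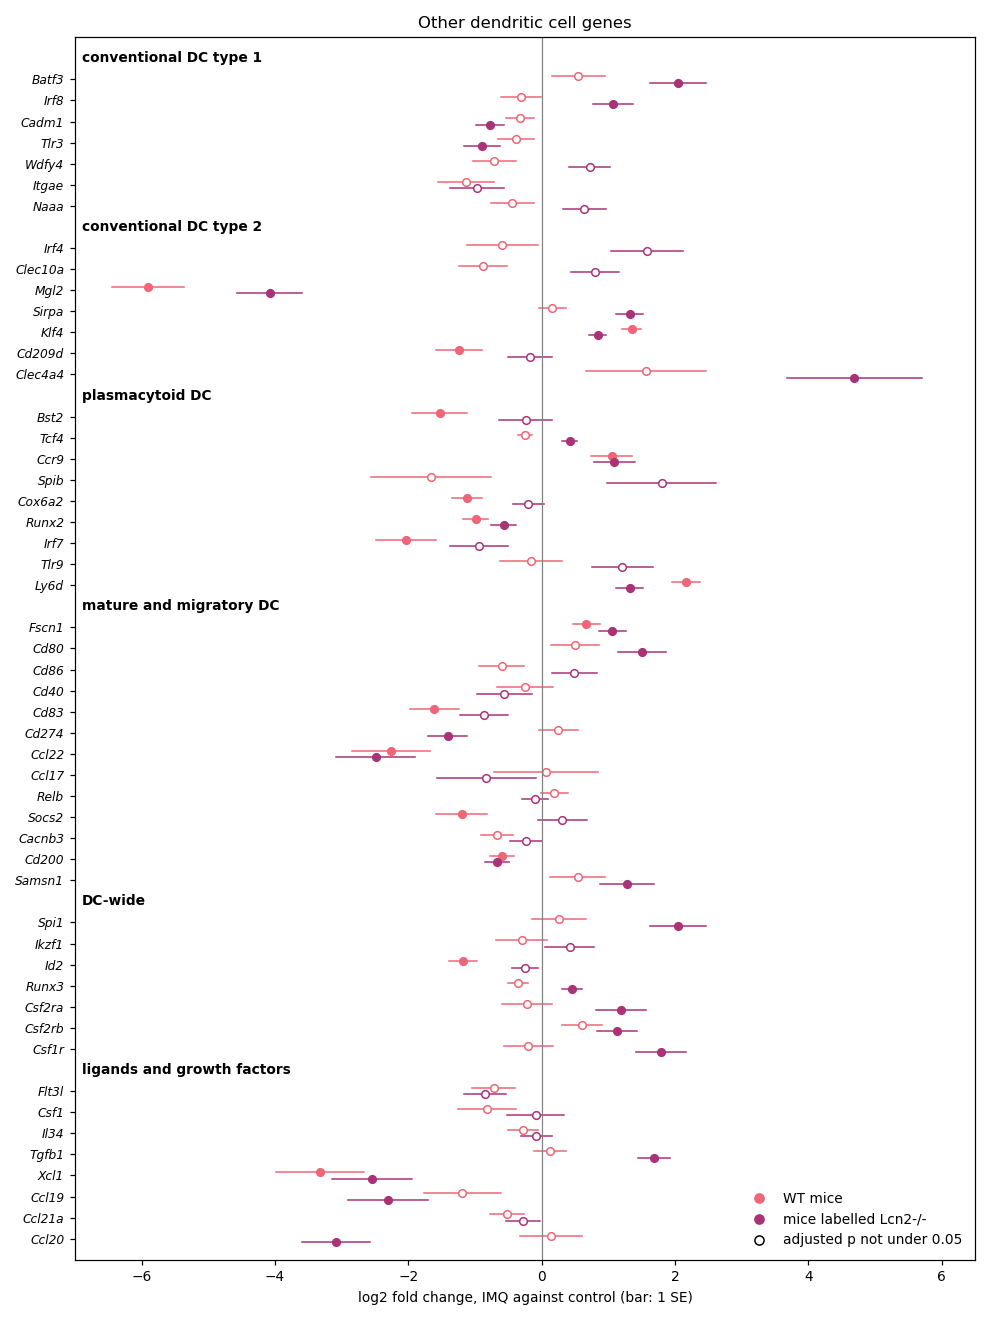
Log2 fold change after IMQ (bars, 1 SE) of 51 tested genes from 6 lists of dendritic cell genes and ligands, in WT mice and in mice labelled *Lcn2*-/-; filled points have an adjusted p under 0.05. *Mgl2* lies furthest to the left, at -5.90 and -4.08, and *Spi1*, *Csf1r*, *Csf2ra* and *Csf2rb* lie between 1.13 and 2.04 in mice labelled *Lcn2*-/- and between -0.22 and 0.60 in WT mice, a difference between the responses that was called for none of these genes.

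Ligands of the member receptors were read last. *Xcl1*, the ligand of XCR1, fell with its receptor, from between 0.924 and 2.71 CPM to between 0.0969 and 0.336 CPM in WT mice (-3.33, SE 0.66, adjusted p = 0.00329, edgeR) and by 2.54 on the log2 scale in mice labelled *Lcn2*-/- (adjusted p = 0.0106, edgeR). It is made by NK and T cells. The 7 T cell markers summed to between 42.7 and 69.7 CPM in WT control mice and between 19.9 and 48.4 CPM after IMQ. In these WT mice 4 of the 7 were called lower, against 14.3% of all tested genes. In mice labelled *Lcn2*-/- none of the 7 was called lower, against 11.2%, and 1, *Cd4*, was called higher, against 14.1%. By sign 6 of the 7 were lower there, with a median log2 fold change of -0.97. *Cd4* ran from 3.41 to 8.8 CPM in those controls and from 24.7 to 33.8 CPM after IMQ. The sums, which include *Cd4*, were 30.2 to 62.9 CPM in controls and 44.1 to 62.6 CPM after IMQ. None of 3 NK cell genes was called lower there. The part of these cells in the *Xcl1* values was not tested. *Flt3l*, the ligand of FLT3, was called in neither genotype, at -0.72 (SE 0.32, adjusted p = 0.114, edgeR) and -0.85 (SE 0.32, adjusted p = 0.0726, edgeR). Neither were the Langerhans cell growth factor *Il34*, at -0.28 and -0.08, and *Csf1*, at -0.82 and -0.09. Among the CCR7 ligands *Ccl21a* was called in neither (-0.52 and -0.28), whereas *Ccl19* fell in mice labelled *Lcn2*-/- (-2.30, SE 0.60, adjusted p = 0.0168, edgeR) and gave -1.19 (adjusted p = 0.150, edgeR) in WT mice. *Ccl20*, a chemokine that draws Langerhans cell precursors, fell in mice labelled *Lcn2*-/- (-3.09, SE 0.51, adjusted p = 0.0017, edgeR), and *Tgfb1*, which maintains Langerhans cells, rose there (1.68, SE 0.24, adjusted p = 0.000802, edgeR). In WT mice the same genes gave 0.14 and 0.12 and were not called. Of the 8 tested ligand genes only *Ccl20* was called between the IMQ groups, lower in mice labelled *Lcn2*-/- (-2.19). Over all tested genes 2.6% were called lower and 2.19% higher in that comparison. *Csf2* had at most 15 reads in a group and was not tested.

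Several calls among these further genes depended on single mice. In WT mice the calls of *Bst2*, *Socs2* and *Fscn1* each went in 3 of the 12 refits without 1 mouse, that of *Cd209d* in 4 and that of *Ccl22* in 1, without WT IMQ mouse 1 (-1.90, adjusted p = 0.0578, edgeR). Without WT control mouse 2 *Socs2* gave -0.58 and *Bst2* -1.03, against -1.20 and -1.53 with it. In mice labelled *Lcn2*-/- the calls of *Csf2ra* were lost in 9 fits, of *Runx2* in 8, of *Samsn1* in 7, of *Irf8*, *Cadm1*, *Tlr3* and *Ccr9* in 4 each, and of *Tcf4* and *Csf2rb* in 2 each. Between the IMQ groups *Tcf4* and *Runx3* lost their calls in 5 fits each, *Klf4* in 8 and *Ccl20* in 7. *Mgl2*, *Irf7*, *Id2*, *Cd83*, *Xcl1*, *Batf3*, *Spi1* and *Csf1r* kept the calls given above in all 12 fits.

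The genes whose log2 CPM ran most like that of *Cd207* over the 12 mice were *Scgb1a1* (Pearson r 0.986, Spearman rho 0.965), *Clec4g* (0.978 and 0.944) and *Fcgbp* (0.974 and 0.944). *Cd207* separates control from IMQ mice into 2 clusters, and within the 6 control mice the r values were 0.77, 0.711 and 0.758. Within the 6 IMQ mice they were 0.944, 0.882 and 0.826. *Scgb1a1* and *Clec4g* were sparse, at no more than 2.32 CPM in any mouse, while *Fcgbp* ran from 77.5 to 175.3 CPM in control mice and from 4.07 to 29.7 CPM in IMQ mice. *Flt3* ran most like *Rab27a* (r 0.97, rho 0.881), *Rasgrf2* (0.966 and 0.944) and *Arsb* (0.948 and 0.811). For each of *Cd207* and *Flt3* these were the 3 highest likenesses among all tested genes, and they carry no test.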

How the data were processed

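Back skin of 12 mice was profiled by bulk RNA-seq with paired reads of 150 bp, in 4 groups of 3 taken from the sample labels. The authors deposited 1 table of raw counts, whole numbers of reads per Ensembl gene and library. The submitters' processing notes name HISAT and the build mm8, and the counting tool, its use of strand and the annotation are not given in the sources used here. Names and positions came from GENCODE M21 (GRCm38), which holds 52073 of the 56923 identifiers (91.5%), and identifiers without a match took 0.567% of the counts. No coordinate was carried from mm8. Promoter sequences came from RefSeq (GRCm38.p6), which matched 9 of the 10 genes.

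Counts were scaled by TMM and tested with edgeR 4.0.16 in R 4.3.3 (quasi-likelihood, robust, 4 group means, all 12 mice) for the 18529 genes that passed filterByExpr. A gene was called when its adjusted p, taken across the 18529 genes, was under 0.05, with no fold threshold. CPM values use TMM library sizes, RPKM values divide them by the merged exon length, and ratios to leukocyte genes add 0.5 counts to both terms. The common biological coefficient of variation was 0.253, and no 2 libraries of a group were duplicates. The labels do not say more of the mice than their group and number, so p-values measure the spread between these samples.

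The 10 genes, the marker lists and the tests were chosen with earlier results of these data known. Named were the 10 genes, *Lcn2* as the genotype check, at most 4 called genes per list and comparison with the largest fold change, the listed ligands, and the 3 genes most like *Cd207*, *Flt3* and *Ccr7*, of which those for *Ccr7* are not reported here. Single values named outside this rule were those of *Itgae*, *Clec10a*, *Col1a1* and *Col1a2*, and of the members' ratios. The scripts were tested on simulated counts. The alternatives were RLE and upper quartile factors, DESeq2 1.42.0, no filter, at least 10 counts in every library, the compared mice only, the replicate number as a block, each mouse left out, a call by a fold above 2 and an unadjusted p under 0.05, and *Ptprc* as the only leukocyte gene.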

Additional observations from a re-analysis of the deposited data

Results flagged for a closer look

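The responses to IMQ differed between the genotypes by edgeR's adjusted p for 3 genes on the lists of ligands and plasmacytoid genes, and for none of the 10 members. For *Ccl20* the response in mice labelled *Lcn2*-/- minus that in WT mice was -3.23 on the log2 scale (SE 0.68, adjusted p = 0.0423, edgeR). *Ccl20* ran from 4.04 to 7.57 CPM in WT control mice, from 4.6 to 8.54 CPM in WT IMQ mice, from 8.74 to 16.1 CPM in controls labelled *Lcn2*-/- and from 0.36 to 2.34 CPM in their IMQ counterparts. For *Tgfb1* the difference was 1.56 (SE 0.34, adjusted p = 0.0432, edgeR), with 40.0 to 67.0, 47.7 to 87.2, 33.8 to 38.1 and 99.6 to 127.1 CPM in the same groups. For *Tcf4* it was 0.67 (SE 0.15, adjusted p = 0.0498, edgeR), with 128.0 to 141.4, 104.0 to 130.1, 118.5 to 136.2 and 167.3 to 183.9 CPM. The 4 fibroblast genes summed to 5621.8 to 8514.3, 4220.1 to 4539.6, 5789.2 to 6372.0 and 8913.6 to 9880.1 CPM in the same groups. The difference between the responses was called for *Col1a1* and *Col1a2*, 2 of the 4, against 2.15% of all tested genes. The part of the fibroblast genes in the *Tcf4* value was not tested. Of the 12 fits that left out 1 mouse, the call was lost in 8 for *Ccl20*, in 9 for *Tgfb1* and in 9 for *Tcf4*. Keratinocytes make *Ccl20* as well, and the 6 keratinocyte genes summed to between 16506.9 and 27470.8 CPM in the IMQ mice labelled *Lcn2*-/- against 28955.0 to 38790.8 CPM in the WT IMQ mice, whose part in these values was not tested.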

How the results depend on the processing

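The falls of *Cd207*, *Xcr1* and *Cd209a* kept their direction in both genotypes under all alternatives in which they were tested. The adjusted p of each of these genes stayed under 0.05 in all 12 fits that left out 1 mouse. Of 979 refitted fold changes of the 10 genes, 909 kept direction and call, 18 lost and 23 gained a call, and 29 changed sign. In WT mice 4 to 6 members were called lower when 1 mouse was left out, with 3289 to 5662 of all genes called, and 3 with at least 10 counts in every library, a filter that *Xcr1* and *Siglech* do not pass. All genes called there were 3371 with a fold above 2 and an unadjusted p under 0.05, against 5287. In mice labelled *Lcn2*-/- the members called lower stayed at 4 and all genes at 2747 to 5170, against 4691 in the fit reported. Between the IMQ groups the members called higher were 2 in the fit reported, 0 to 3 without 1 mouse, 4 by DESeq2 (with 1 lower), 1 with at least 10 counts in every library and 0 with the replicate block. All genes called there were 886 in the fit reported, 0 to 2726 without 1 mouse, 2640 by DESeq2, 1894 with the compared mice only and 136 with the block. Between the controls they were 2, against 0 to 32 without 1 mouse, 111 by DESeq2, 6 without a filter, 422 by fold and unadjusted p, 0 with the compared mice only and 0 with the block. For the difference between the responses they were 398, against 2 to 1927 without 1 mouse, 2028 by DESeq2, 2031 by fold and unadjusted p and 10 with the block. Members called there were 0 in the fit reported, 0 to 1 lower and 0 to 3 higher without 1 mouse, 1 lower and 2 higher by DESeq2, and 1 lower and 4 higher by fold and unadjusted p. The cause of these shifts was not tested.

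Fold changes near 0 turned sign. *Flt3* in mice labelled *Lcn2*-/- gave -0.01 with at least 10 counts in every library, -0.02 without a filter, a value that rounds to 0.0 with the replicate block and -0.08 with upper quartile factors, where *Zbtb46* gave -0.04. Upper quartile factors put the median of all genes at -0.13 in both IMQ comparisons, against -0.02 and -0.05. With 1 mouse left out the sign of members not called also turned in these comparisons. *Flt3* ran from -0.22 to 0.22, *Zbtb46* from -0.17 to 0.25, *Siglech* from -0.03 to 0.67 and *Ccr7* from -0.60 to 0.18 after IMQ in mice labelled *Lcn2*-/-. Between the IMQ groups *Cd207* ran from 0.0 to 0.6 and *Xcr1* from -0.04 to 1.79, and their differences between the responses from -0.36 to 0.24 and from -0.18 to 1.64. Between the controls *Xcr1* ran from -0.1 to 0.39, *Flt3* from -0.44 to 0.01, *Cd209a* from -0.53 to 0.08, *Siglech* from -0.47 to 0.16, *Ccr7* from -0.42 to 0.34 and *Zbtb46* from -0.17 to 0.25. Same-numbered mice share only a number, with correlations of their deviations from the group means of -0.555 to 0.199, so the block is not a pairing. *Xcr1*, *Siglech*, *Ccr7* and *Clec9a* rest on under 200 reads per library, and the IMQ counts of *Xcr1* are near the floor, which limits the precision of its fold change.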

Other observations

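Other leukocyte lists put the members in context. Over all tested genes 14.2% were called higher and 14.3% lower in WT mice, and 14.1% and 11.2% in mice labelled *Lcn2*-/-. Neutrophil genes rose in both genotypes, with 3 of 3 tested called higher and sums of 6.17 to 18.5 CPM in WT control mice and 96.7 to 125.4 CPM in WT IMQ mice. In mice labelled *Lcn2*-/- the sum ran from 7.89 to 20.1 CPM in controls and from 124.8 to 305.5 CPM after IMQ. T cell genes were called lower in 4 of 7 cases in WT mice. In mice labelled *Lcn2*-/- *Cd4* was called higher and none lower, though 6 of the 7 were lower by sign. The monocyte genes gave 0 of 4 called in WT mice and 1 of 4, *Cx3cr1*, called higher in mice labelled *Lcn2*-/-.

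In the same skin, 5 of 6 keratinocyte genes were called higher and 3 of 4 fibroblast genes lower in WT mice, while 4 of 6 keratinocyte genes and 2 of 4 fibroblast genes were called higher in mice labelled *Lcn2*-/-. Skeletal muscle genes were called lower in 2 of 3 cases in WT mice and 1 of 3 in mice labelled *Lcn2*-/-. B cell genes were nearly absent, with 1 of 4 tested and sums of at most 10.3 CPM, NK cell genes were called lower in 1 of 3 cases in WT mice and in none of 3 in mice labelled *Lcn2*-/-, and of 3 tested lymph node genes 1 rose and 1 fell in WT mice and 1 fell in mice labelled *Lcn2*-/-.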
